A study of Homo sapiens with 6 samples.

Results

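The genes described here were 46 components and classical inflammatory targets of the NF-κB pathway, chosen by symbol as Rel subunits, IκB proteins, kinases, TRAF adaptors, feedback inhibitors and induced targets, out of 40173 genes in the count table. A549, a human lung adenocarcinoma cell line, had been transfected either with an siRNA against the long noncoding RNA FAM83H-AS1 (silenced group, 3 libraries) or with a negative control (control group, 3 libraries), and RNA-Seq was run on an Ion Proton instrument with total RNA as the starting material. Both groups were the same cell line, with no allele, inducer or cytokine stated to differ between them. The study had proposed FAM83H-AS1 as an oncogenic driver of lung adenocarcinoma and sequenced these cells to see which genes depended on it. Which siRNA was used for these libraries was not given in the sources used here, and no label says that the 3 libraries of a group came from separate cultures, so that the p-values may measure technical spread alone.

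NF-κB is a family of dimeric transcription factors built from Rel subunits and held in the cytoplasm by IκB proteins. Receptors of the tumour necrosis factor, interleukin 1 and Toll-like families signal through TRAF and IRAK proteins to the IκB kinase, IKK, which marks IκB for degradation and so frees the Rel dimers to enter the nucleus. The dimers then switch on cytokines, chemokines, survival genes and the pathway's own inhibitors, and in lung epithelium this programme is best known for recruiting leukocytes and for protecting cells from death.

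NF-κB dimers bind short GC-flanked sites, so the promoters of these genes were read for them. RefSeq promoter windows on GRCh38.p14, from 250 bases before to 50 bases after a gene's start, were given for 39 of the 46 genes (61 windows). CCL2, IER3, IKBKB, LIF, NFKBIE, RELB and RIPK2 were the other 7. The NF-κB consensus, 10 bases long, was searched on both strands and was found in at least 1 window of 23 of 39 genes (59.0%), against 3619 of 27305 genes in the whole promoter table (13.3%). Counted by window, it was in 45.9% of the windows of these genes and in 11.3% of all windows. The genes were chosen as components and classical targets of NF-κB, so a higher share may be built into that choice and is no test. The looser form, GGG followed by any 5 bases and CC, which holds every consensus match within it, was in a window of 37 of the 39 genes (94.9%) and of 61.7% of all genes. Sites are printed for TNFAIP3, BIRC3, CXCL2, IL6, IL32 and CYLD, the genes with a consensus match that rose in silenced cells. Those of NFKB1, NFKB2 and NFKBIA, which did not pass, and of TRAF1, which rose, are also printed. Other genes that did not pass also held the consensus, and IKBKE, IRAK2, KLF6 and SOD2 rose without it. It was in a window of 54.5% of genes that rose and of 59.1% that did not pass. Each site runs in the 5′ to 3′ direction of the gene's strand, with the 10 matching bases in capitals and 10 bases of flank on each side. For each gene the site nearest its start is shown, and TNFAIP3, BIRC3, CYLD and NFKB2 hold further matches. The match shown is on the strand opposite the gene in TNFAIP3, BIRC3, CXCL2, IL32 and NFKBIA, on the gene's own strand in IL6, NFKB1 and NFKB2, and on both strands in CYLD. CXCL2 and IL32 also hold a match on the gene's own strand that begins 1 base earlier. For TRAF1, whose windows held no consensus match, the looser form is shown.
TNFAIP3, chr6:137867194-137867223, plus strand, 55 bases before the start: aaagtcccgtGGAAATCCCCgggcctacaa
BIRC3, chr11:102317339-102317368, plus strand, 135 bases before the start: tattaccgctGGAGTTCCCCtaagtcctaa
CXCL2, chr4:74099253-74099282, minus strand, 77 bases before the start: tggagctccgGGAATTTCCCtggcccggga
IL6, chr7:22727117-22727146, plus strand, 73 bases before the start: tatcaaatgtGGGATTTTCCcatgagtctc
IL32, chr16:3065295-3065324, plus strand, 98 bases before the start: ctgtactcagGGAGTTTCCCcagccagctg
CYLD, chr16:50742405-50742434, plus strand, beginning at the start: cccccccaccGGGGCTTCCCcatcccccga
NFKB1, chr4:102501300-102501329, plus strand, 49 bases before the start: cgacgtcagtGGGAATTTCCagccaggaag
NFKB2, chr10:102395674-102395703, plus strand, 21 bases before the start: tggtattttcGGGACTTTCCtaagctgctc
NFKBIA, chr14:35404811-35404840, minus strand, 81 bases before the start: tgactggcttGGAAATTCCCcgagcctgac
TRAF1, chr9:120929135-120929164, minus strand, looser form 17 bases after the start: cggaagctccGGGCCTGGCCgccggtaggc
A match describes these letters in these windows and says nothing about binding, and sites outside the windows were not searched.

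Library totals ran from 9738291 to 11495334 counts in control replicates 1 and 2 and from 10102704 to 13513170 in the silenced group, with 17742643 in control replicate 3. Control replicate 3 stood apart, where RNA5-8SP6, a pseudogene of ribosomal RNA, took 3.22% of the counts against 0.241% to 0.448% elsewhere. FAM83H-AS1 itself fell in the library group labelled silenced, from 15.9 ± 1.39 to 4.87 ± 0.617 CPM (SD, n = 3), which is -1.70 on the log2 scale (SE 0.148, edgeR adjusted p = 7.99e-05). CPM, the unit of level used throughout, is the count scaled to the normalized size of its library. The keratins KRT8, KRT7 and KRT18 were high, at control means of 1863, 1413 and 1316 CPM, whereas the epithelial markers EPCAM (3.86 CPM), CDH1 (0.780 CPM) and KRT19 (0.944 CPM) were low. The 11 epithelial markers summed to 5241 to 5626 CPM in control libraries and to 4263 to 4313 CPM in silenced ones, with 1 marker higher and 4 lower by the edgeR test, and the part of this in the results was not tested. Of the 5 monocyte and macrophage markers none reached the level needed for testing, LYZ had 0 counts in every library, and their sum was 0.691 to 0.925 CPM in control and 1.04 to 1.20 CPM in silenced libraries. Of 5 lymphocyte markers CD3D, CD3E and MS4A1 had 0 counts throughout, and the sum was 0.777 to 1.60 CPM in control and 1.27 to 2.01 CPM in silenced libraries. The 5 fibroblast markers summed to 29.4 to 35.1 CPM in control and 34.5 to 42.0 CPM in silenced libraries, and the 4 endothelial markers to 4.42 to 6.39 and 3.79 to 4.16 CPM, with KDR at 0 counts.

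In silenced cells 13 of the NF-κB genes rose and 0 fell, in bulk RNA in which a change in the cells making a transcript and a change per cell cannot be told apart. They were the adaptor TRAF1, the inhibitor NFKBIE, the kinases IKBKE and IRAK2, the feedback inhibitors TNFAIP3 and CYLD, the survival and stress genes BIRC3, IER3, SOD2 and KLF6, the chemokine CXCL2, and the cytokines IL6 and IL32. The steps from TRAF1 (3.37-fold) and CXCL2 (2.55-fold) down to IL32 (1.24-fold) were mostly small, and the 5 Rel subunits and the IKK genes did not pass. A gene was called when the quasi-likelihood test of edgeR gave a Benjamini-Hochberg adjusted p under 0.05 over all 15250 genes with enough counts for testing. Of the 46 genes 40 were tested, so 32.5% of those tested were higher, against 8.75% of all genes tested. The genes had been chosen with earlier results of these data known, so these shares describe the set and are no independent test of it. At an unadjusted edgeR p under 0.05, 15 were higher and 1 was lower, 16 of 40 in all beside 32.1% of all genes (16.3% higher and 15.8% lower). DESeq2 called 13 higher and 0 lower, beside 7.64% of all genes higher, and its 13 held TNIP1 in place of CXCL2. CXCL2 passed the minimum on low counts only through the silenced libraries, and so had to be higher there, and TNFRSF9 through these and 1 control library, while the other 38 reached it in every library. The log2 fold change, silenced against control, was positive for 33 and negative for 7 of the 40, with a median of 0.20 beside -0.00 for all genes tested. Only TRAF1 and CXCL2 also passed a fold change over 2, a pair of thresholds that 2.14% of all genes passed, 1.14% upward and 0.997% downward.

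**Figure D1:**
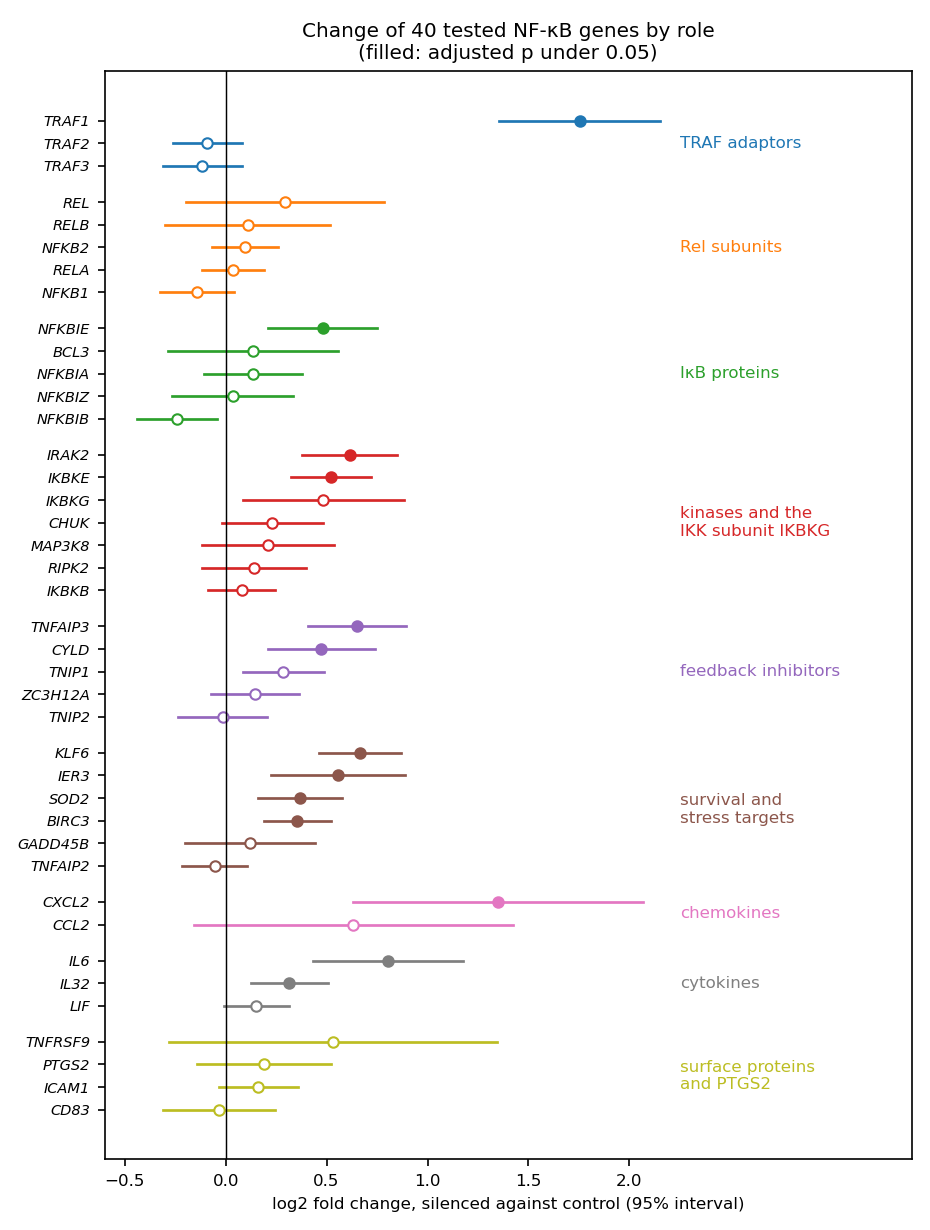
Log2 fold change (horizontal axis, silenced against control) of each of the 40 tested NF-κB genes, grouped by role, with points for the estimate, bars for the 95% interval and filled points for an adjusted p under 0.05. The 13 filled points all lie right of 0, from IL32 at 0.32 to TRAF1 at 1.75, and no filled point lies left of it.

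**Figure D2:**
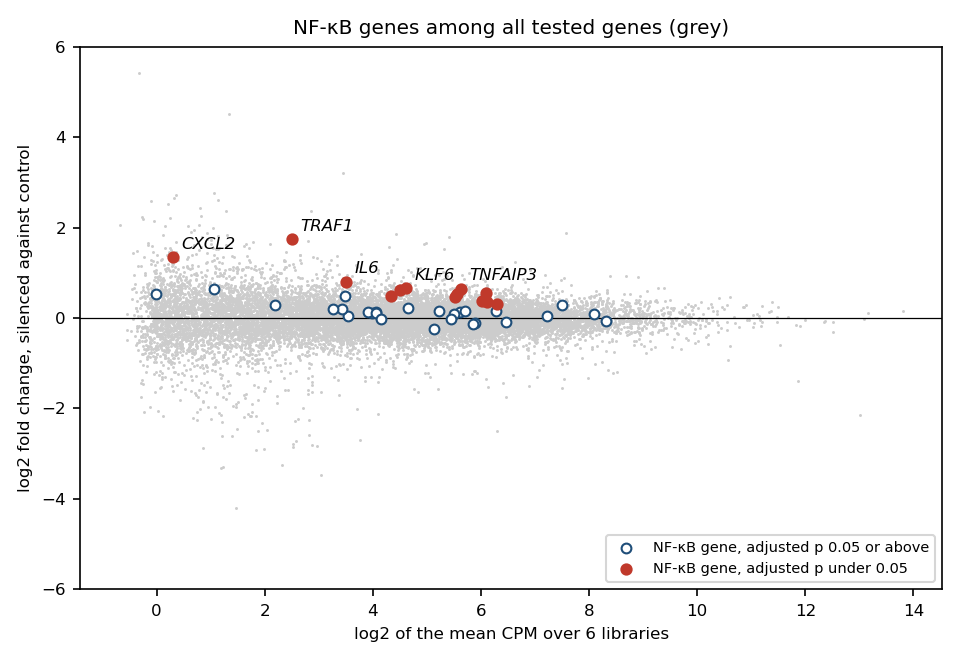
Log2 fold change (vertical axis) against the log2 of the mean CPM over the 6 libraries (horizontal axis) for the 15250 genes tested in grey, with the NF-κB genes in colour and those with an adjusted p under 0.05 filled. The tested NF-κB genes range from -0.24 to 1.75, and the genes that rose are spread over low and high levels.

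For 14 of the 40 genes every silenced library lay above every control library and for 1, NFKBIB, every silenced library lay below. The 37.5% without overlap compares with 36.6% of all genes, split there into 19.1% above and 17.5% below. The 14 were 12 of the genes that rose, IER3 being the exception, together with MAP3K8 and LIF. For CXCL2, 1 of the 12, the lack of overlap was fixed by the minimum on low counts. The counts of the 46 genes made up 0.197% to 0.200% of each control library and 0.222% to 0.231% of each silenced library. Relative to the control mean, the median gene of the set deviated by -0.06, -0.02 and 0.05 on the log2(CPM + 1) scale in control replicates 1, 2 and 3, and by 0.29, 0.15 and 0.23 in silenced replicates 1, 2 and 3. The shift was therefore present in each silenced library and was smallest in silenced replicate 2. Without control replicate 3, the log2 fold change moved by over 1.5 times or changed sign for 14 of the 40 genes, 0 of which had passed. Among these were REL (0.30 to 0.54), RELB (0.11 to 0.32), BCL3 (0.14 to 0.27), NFKBIA (0.13 to 0.025), MAP3K8 (0.21 to 0.065), CCL2 (0.63 to 0.33) and IKBKG (0.48 to 0.74), and of the 14 IKBKG was the gene that then passed. Calls did depend on this library, since without it CYLD and IER3 no longer passed and TNIP1 did, and 11 of the 13 calls were kept. They depended no less on the others, since leaving out another library lost from 2 (silenced replicate 2) to 6 (silenced replicate 1) of the 13 calls.

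TRAF1 was the member with the largest fold change. TRAF1 is an adaptor of tumour necrosis factor receptors that works together with TRAF2 and is itself a well-known NF-κB target. Its level was 2.26, 2.50 and 2.90 CPM in control replicates 1, 2 and 3 and 8.69, 8.60 and 8.92 CPM in silenced replicates 1, 2 and 3. The 3 silenced libraries were nearly equal and each lay far above the highest control. The mean went from 2.55 ± 0.321 to 8.74 ± 0.165 CPM (SD, n = 3), and the log2 fold change was 1.75 (SE 0.182, 95% interval 1.35 to 2.15, edgeR adjusted p = 2.27e-04). The counts behind these values were 22, 29 and 49 in control and 89, 93 and 120 in silenced libraries. TRAF1 was also a low gene for its length, at 0.396 CPM per kb of exon in control and 1.35 in silenced cells. Its partners TRAF2, which links the receptors to ubiquitin ligases, and TRAF3, a brake on the non-canonical pathway, did not pass, at log2 fold changes of -0.09 (95% interval -0.26 to 0.08) and -0.12 (-0.31 to 0.08). TRAF2 was far more abundant than TRAF1, at 37.5 CPM per kb of exon in silenced cells.

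**Figure D3:**
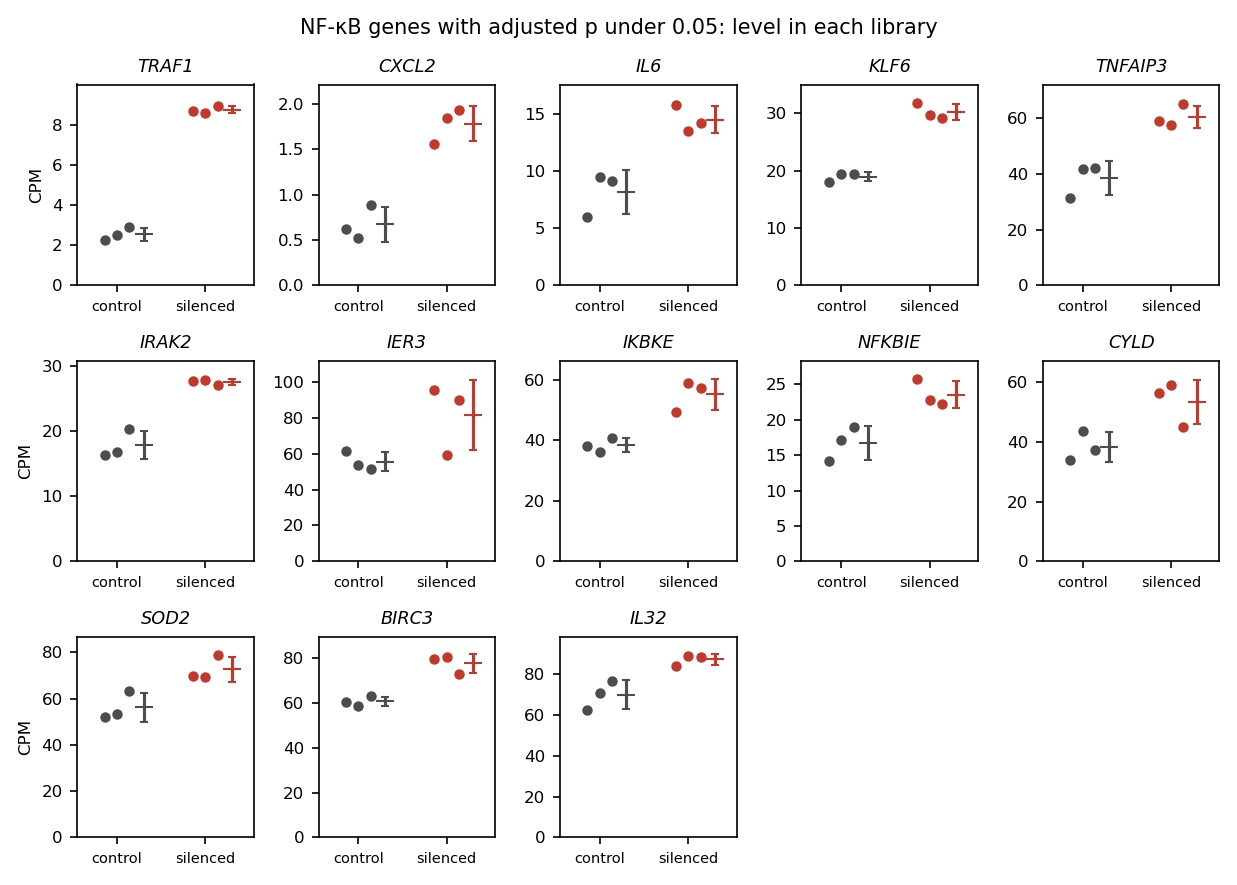
CPM (vertical axes, each from 0) of the 13 NF-κB genes that rose, with a point per library, a short horizontal line for the group mean and error bars for the SD (n = 3 per group). In every panel but that of IER3 the lowest silenced point lies above the highest control point. Relative to the highest control point, though not in CPM, TRAF1 has the widest gap.

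The Rel subunits are the DNA-binding proteins of the pathway, and none of the 5 passed in either direction, also at an unadjusted edgeR p under 0.05 and with DESeq2. RELA, the p65 subunit that carries most canonical activity, was at 156, 143 and 146 CPM in control and 158, 149 and 149 CPM in silenced libraries. NFKB1, the precursor of p50, was at 60.2, 59.2 and 63.3 CPM in control and 60.8, 54.3 and 50.9 CPM in silenced libraries. Both groups overlapped for each gene. The log2 fold changes were 0.04 (95% interval -0.12 to 0.19, edgeR adjusted p = 0.757) for RELA and -0.14 (-0.33 to 0.04, adjusted p = 0.275) for NFKB1, so that a fold change as large as that of TRAF1 lay outside both intervals.

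NFKB2, the precursor of p52 in the non-canonical pathway, was at 253, 261 and 282 CPM in control and 276, 271 and 304 CPM in silenced libraries. RELB, the usual partner of p52, was at 10.6, 15.5 and 19.0 CPM in control and 14.0, 17.3 and 18.1 CPM in silenced libraries. The control libraries of RELB were the more scattered, and the 2 groups of both genes overlapped. NFKB2 had a log2 fold change of 0.10 (95% interval -0.07 to 0.26, edgeR adjusted p = 0.412) and RELB one of 0.11 (-0.30 to 0.52, adjusted p = 0.726). REL, the c-Rel subunit known mainly from lymphocytes, was the lowest of the family, at 3.39, 3.54 and 5.20 CPM in control and 5.18, 4.44 and 5.50 CPM in silenced libraries. These groups overlapped as well, and the log2 fold change was 0.30 with a wide interval of -0.19 to 0.79 (adjusted p = 0.396). Per kb of exon in control cells, the order of the subunits was NFKB2 at 72.0 CPM, RELA at 43.8, NFKB1 at 11.03, RELB at 6.55 and REL at 0.359.

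The IκB family holds Rel dimers back or, for its nuclear members, adjusts what they do at promoters, and 1 of its 5 genes rose. NFKBIE, which encodes IκBε, an inhibitor induced late in the response, was at 14.2, 17.1 and 18.9 CPM in control and 25.7, 22.8 and 22.2 CPM in silenced libraries. The groups did not overlap, with means of 16.7 ± 2.39 and 23.6 ± 1.87 CPM (SD, n = 3) and a log2 fold change of 0.48 (SE 0.122, edgeR adjusted p = 0.0222). This call was lost when control replicate 1, control replicate 2 or silenced replicate 1 was left out, at adjusted p from 0.0601 to 0.0952.

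NFKBIA, encoding the rapidly resynthesized IκBα, did not pass, at 53.3, 46.5 and 39.6 CPM in control and 53.1, 53.4 and 45.9 CPM in silenced libraries. The groups overlapped and the log2 fold change was 0.13 (95% interval -0.11 to 0.38, edgeR adjusted p = 0.437). NFKBIB, encoding IκBβ, was the only tested gene of the set with all silenced libraries below all control ones, at 42.0, 36.7 and 35.6 CPM in control and 32.6, 31.2 and 32.7 CPM in silenced libraries. Its log2 fold change of -0.24 (95% interval -0.44 to -0.04) missed the threshold after adjustment (edgeR adjusted p = 0.0910) and is the 1 gene lower at an unadjusted p under 0.05. The nuclear members NFKBIZ and BCL3 overlapped between groups. NFKBIZ was at 9.77, 11.4 and 13.2 CPM in control and 11.9, 11.8 and 11.7 CPM in silenced libraries, with a log2 fold change of 0.03 (-0.27 to 0.34). BCL3 was at 14.6, 14.5 and 18.6 CPM in control and 20.5, 11.8 and 20.3 CPM in silenced libraries, with silenced replicate 2 the lowest of the 6 and a log2 fold change of 0.14 (-0.29 to 0.56).

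Among the kinases, the noncanonical IKBKE and the interleukin 1 receptor kinase IRAK2 rose and the core IKK genes did not pass. IKBKE, the IKK-related kinase best known from interferon induction, was at 38.1, 36.3 and 41.0 CPM in control and 49.5, 58.9 and 57.4 CPM in silenced libraries. IRAK2, a relay between MyD88-linked receptors and TRAF6, was at 16.4, 16.8 and 20.4 CPM in control and 27.7, 27.9 and 27.1 CPM in silenced libraries. Neither gene showed any overlap between its groups. IKBKE went from 38.5 ± 2.36 to 55.3 ± 5.04 CPM (SD, n = 3), with a log2 fold change of 0.52 (SE 0.0907, edgeR adjusted p = 0.00395). IRAK2 went from 17.9 ± 2.17 to 27.6 ± 0.414 CPM, with a log2 fold change of 0.61 (SE 0.107, adjusted p = 0.00394).

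IKK consists of the catalytic subunits IKKα (CHUK) and IKKβ (IKBKB) and the scaffold NEMO (IKBKG). CHUK was at 25.4, 23.4 and 21.1 CPM in control and 25.4, 31.1 and 25.3 CPM in silenced libraries. IKBKB was at 42.7, 43.6 and 45.6 CPM in control and 44.9, 47.5 and 47.1 CPM in silenced libraries. The groups of both overlapped, with log2 fold changes of 0.23 (95% interval -0.02 to 0.48, edgeR adjusted p = 0.189) and 0.08 (-0.09 to 0.24, adjusted p = 0.506). IKBKG was at 7.51, 8.12 and 12.0 CPM in control and 14.7, 12.8 and 11.9 CPM in silenced libraries. Its highest control, replicate 3, lay just above its lowest silenced library. The log2 fold change of IKBKG was 0.48 (95% interval 0.09 to 0.88, adjusted p = 0.0905), and the adjusted p was 0.0150 without control replicate 3 and 0.0227 in the fit to all genes with at least 1 count. That last fit gave another gene, CFB, an edgeR adjusted p of 1.70e-38 against 2.38e-05 in the main fit. The p-values of the 2 fits are therefore not comparable. IKBKG has a near-identical pseudogene copy, and how reads with several matches were assigned is not given in the sources used here, so its level is uncertain. MAP3K8, a kinase between IKK and the ERK pathway, and RIPK2, the kinase of the NOD receptors, did not pass, at log2 fold changes of 0.21 and 0.14.

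**Figure D4:**
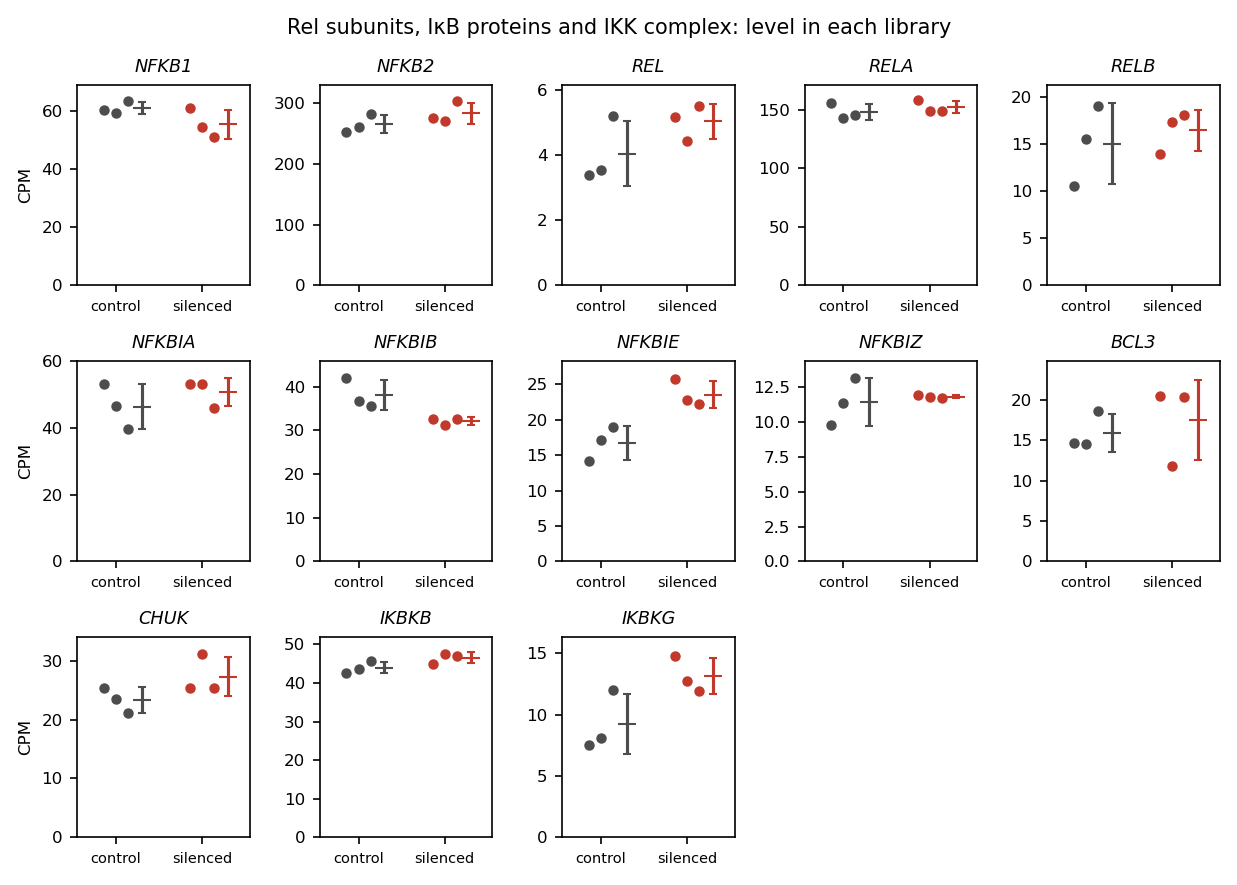
CPM (vertical axes, each from 0) of the Rel subunits, the IκB proteins and the IKK genes CHUK, IKBKB and IKBKG, with a point per library, a short horizontal line for the group mean and error bars for the SD (n = 3 per group). The groups overlap in every panel except NFKBIE, where silenced libraries lie above, and NFKBIB, where they lie below.

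Feedback inhibitors are induced by NF-κB and shut the signal off again, and 2 of 5 rose. TNFAIP3, the ubiquitin-editing enzyme A20, was at 31.4, 41.6 and 42.1 CPM in control and 58.9, 57.6 and 65.0 CPM in silenced libraries. CYLD, a deubiquitinase that removes the chains on which IKK assembles, was at 33.8, 43.7 and 37.4 CPM in control and 56.3, 58.9 and 44.8 CPM in silenced libraries. The groups were well separated for TNFAIP3 and only just separated for CYLD, whose silenced replicate 3 lay near the highest control. TNFAIP3 went from 38.4 ± 6.07 to 60.5 ± 3.93 CPM (SD, n = 3), with a log2 fold change of 0.65 (SE 0.111, edgeR adjusted p = 0.00350). CYLD went from 38.3 ± 5.005 to 53.4 ± 7.50 CPM, with a log2 fold change of 0.47 (adjusted p = 0.0221), and its call was lost in 4 of the 6 fits that left out 1 library (control replicates 1 and 3, silenced replicates 1 and 2), at adjusted p from 0.0571 to 0.0864. Both promoters hold the consensus site printed above.

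TNIP1, an A20-binding protein, was the most abundant of this group per exon length and just missed the threshold. It was at 149, 158 and 179 CPM in control and 202, 178 and 213 CPM in silenced libraries, with a log2 fold change of 0.28 (95% interval 0.08 to 0.48, edgeR adjusted p = 0.0534). The groups overlapped by a single pair of libraries. TNIP1 passed in 8 of the 15 other settings, among them DESeq2 (adjusted p = 0.0279), and without control replicate 3 or silenced replicate 2 (0.0285 and 0.0290), with a range over the 15 settings from 0.0128 to 0.159. The lowest came from the fit to all genes with at least 1 count, whose p-values are not comparable with the main ones. TNIP2 and ZC3H12A, the RNase Regnase-1 that degrades cytokine mRNAs, had log2 fold changes of -0.01 and 0.15 and did not pass.

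Survival and stress genes contributed 4 of the 13 genes that rose, out of 6 tested. KLF6, a zinc finger transcription factor induced by stress, was at 18.0, 19.4 and 19.5 CPM in control and 31.7, 29.7 and 29.1 CPM in silenced libraries. BIRC3, the ubiquitin ligase cIAP2 that protects cells from death receptor signalling, was at 60.5, 58.6 and 63.0 CPM in control and 79.7, 80.5 and 72.9 CPM in silenced libraries. The groups of both genes were apart by more than the range within either group. KLF6 went from 19.0 ± 0.838 to 30.2 ± 1.37 CPM (SD, n = 3), with a log2 fold change of 0.67 (SE 0.0922, edgeR adjusted p = 0.00118). BIRC3 went from 60.7 ± 2.17 to 77.7 ± 4.14 CPM, with a log2 fold change of 0.35 (SE 0.0760, adjusted p = 0.0105, and 0.0522 without silenced replicate 1).

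SOD2, the manganese superoxide dismutase of mitochondria, was at 52.1, 53.3 and 63.4 CPM in control and 69.9, 69.4 and 79.0 CPM in silenced libraries. IER3, an immediate early gene of the stress response, was at 61.4, 53.5 and 51.6 CPM in control and 95.6, 59.2 and 89.6 CPM in silenced libraries. The SOD2 groups did not overlap, whereas silenced replicate 2 of IER3 lay within the control range. SOD2 had a log2 fold change of 0.37 (SE 0.0948, edgeR adjusted p = 0.0232), lost without control replicates 1 or 2 or silenced replicates 1 or 3 (adjusted p from 0.0571 to 0.0805). IER3 had one of 0.56 (SE 0.151, adjusted p = 0.0290), lost without control replicates 2 or 3 or silenced replicates 1 or 3 (adjusted p from 0.0735 to 0.118). GADD45B, a stress sensor that damps JNK signalling, and TNFAIP2, a target first found in endothelium, did not pass, at log2 fold changes of 0.12 and -0.06. TNFAIP2 was among the most abundant genes of the set for its length, at 69.1 CPM per kb of exon in control cells.

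Chemokines attract neutrophils and monocytes and are the targets most often read as a sign of NF-κB activity, but in A549 they were barely detected. CXCL2, a neutrophil attractant, had 0.617, 0.518 and 0.887 CPM in control and 1.56, 1.85 and 1.93 CPM in silenced libraries, from 6, 6 and 15 and from 16, 20 and 26 counts. Every silenced library lay above every control one, but 0 control and 3 silenced libraries reached the minimum level for testing. The direction and the lack of overlap were therefore fixed by that minimum and are no independent sign of a rise. The log2 fold change was 1.35 (SE 0.327, 95% interval 0.63 to 2.07, edgeR adjusted p = 0.0178), lost under DESeq2 and without control replicates 1 or 2 or silenced replicate 3 (adjusted p from 0.0541 to 0.0670). CXCL1 and CXCL3, close paralogs of CXCL2, were below the level for testing, with 3, 1 and 4 against 5, 1 and 5 counts for CXCL1 and 8, 2 and 10 against 5, 3 and 8 for CXCL3. Reads of the 3 genes may be shared, and their promoter sites are likewise close, with 2 differing bases of 30 between CXCL1 and CXCL2. CXCL5 had 0, 2 and 0 against 1, 0 and 0 counts and CCL20, an attractant of lymphocytes and dendritic cells, had 0, 0 and 1 in both groups. CCL2, the monocyte attractant, was tested but overlapped, with a log2 fold change of 0.63 and an interval of -0.16 to 1.42 (adjusted p = 0.254).

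Of the cytokines, IL6 and IL32 rose and LIF did not pass. IL6, the main inducer of the acute phase response, was at 5.96, 9.50 and 9.16 CPM in control and 15.8, 13.5 and 14.3 CPM in silenced libraries. IL32, a cytokine that induces other inflammatory cytokines, was at 62.5, 71.0 and 76.6 CPM in control and 84.4, 89.1 and 88.5 CPM in silenced libraries. The groups of both were apart, with control replicate 1 the lowest library for each. IL6 went from 8.21 ± 1.95 to 14.5 ± 1.18 CPM (SD, n = 3), with a log2 fold change of 0.81 (SE 0.169, edgeR adjusted p = 0.00975). IL32 went from 70.0 ± 7.11 to 87.3 ± 2.60 CPM, with a log2 fold change of 0.32 (SE 0.0863, adjusted p = 0.0300), and its call held only without control replicate 3 among the 6 fits that left out a library, with adjusted p from 0.0668 to 0.0865 in the others. LIF, an IL6-family cytokine, had silenced libraries above control ones by a narrow margin, with means of 49.6 ± 2.29 and 55.2 ± 0.184 CPM and a log2 fold change of 0.15 (adjusted p = 0.181).

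The interleukin 1 genes IL1A and IL1B, which encode ligands that themselves activate NF-κB, were below the level for testing. IL1A had 2, 5 and 8 counts in control and 18, 13 and 10 in silenced libraries, and IL1B had 6, 3 and 13 against 11, 22 and 12. Counts of IL1A did not overlap between the groups, while those of IL1B did overlap as counts but not after scaling to library size. In a fit to all genes with at least 1 count, the log2 fold change was 1.62 (edgeR adjusted p = 0.0175) for IL1A and 1.20 (adjusted p = 0.0667) for IL1B. The p-values of that fit are not comparable with those of the main fit, as described for IKBKG. IL1A also passed in the fit to thinned counts (adjusted p = 0.0315) and without silenced replicate 3 (0.0269), but not when any control library was left out (adjusted p from 0.0697 to 0.104). At the main minimum level, 0 control and 2 silenced libraries of IL1A were above it. The fits to thinned counts and with a library left out therefore tested IL1A only through its silenced libraries, so that its direction in them was fixed beforehand. The fit to all genes with at least 1 count had no such minimum per group.

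Among the surface proteins and PTGS2, 0 of 4 passed, also at an unadjusted edgeR p under 0.05 and with DESeq2. ICAM1, the adhesion molecule that leukocytes bind, went from 73.2 ± 2.53 to 81.8 ± 8.76 CPM (SD, n = 3), with a log2 fold change of 0.16 (95% interval -0.03 to 0.36). PTGS2, the inducible prostaglandin synthase COX-2, had a log2 fold change of 0.19 (-0.14 to 0.52). CD83 and TNFRSF9, surface proteins of activated immune cells, had log2 fold changes of -0.03 (-0.31 to 0.24) and 0.53 (-0.28 to 1.34), the latter at a control mean of only 0.830 CPM. The groups overlapped for all 4.

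**Figure D5:**
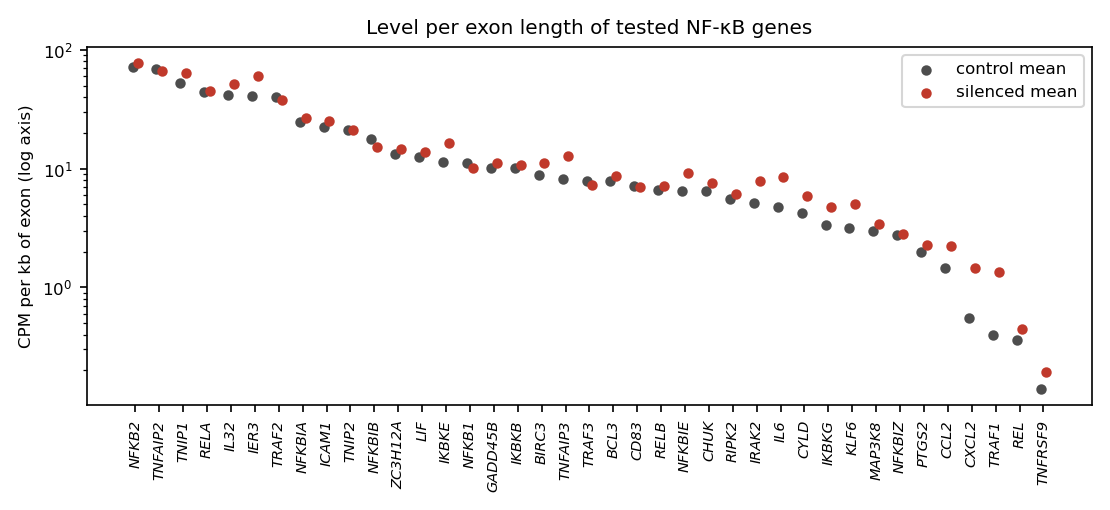
Mean CPM per kb of exon (vertical log axis) of the tested NF-κB genes with an exon length, in control and silenced cells. The levels run from 0.139 for TNFRSF9 to 72.0 for NFKB2 in control cells, and the space between the paired points is small beside that range for every gene but TRAF1 and CXCL2.

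By role, the number of genes higher was 1 of 3 tested for TRAF adaptors, 0 of 5 for Rel subunits, 1 of 5 for IκB proteins, 2 of 7 for kinases, 2 of 5 for feedback inhibitors, 4 of 6 for survival and stress genes, 1 of 2 for chemokines, 2 of 3 for cytokines and 0 of 4 for surface proteins with PTGS2. The chemokine counted was CXCL2, whose direction was fixed by the minimum on low counts. The median log2 fold change was 0.10 for Rel subunits, 0.13 for IκB proteins, 0.23 for kinases, 0.28 for feedback inhibitors and 0.36 for survival and stress genes, and no difference between roles was tested. The consensus site was in a window of 6 of 11 genes that rose and had an entry (TNFAIP3, CYLD, BIRC3, CXCL2, IL6 and IL32), in 13 of 22 that did not pass and in 4 of 6 below the level for testing. IKBKE, IL6, IRAK2, KLF6, TNFAIP3 and TRAF1 were the 6 genes with an adjusted p under 0.01, and the same 6 kept their call in each of the 6 fits that left out 1 library.

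A list of 118 other pathway genes, none of them among the 46, was read in the same fit. Of these 85 were tested, 13 were higher and 3 lower, with a median log2 fold change of 0.10, against 8.75% higher and 8.27% lower for all genes. Of 20 receptors 14 were tested and 0 passed in edgeR, with 7 at an unadjusted p under 0.05 beside the 32.1% of all genes, while DESeq2 called 1 lower, TNFRSF12A, the receptor of TWEAK. Of 24 other ligands and chemokines only 6 were tested and 0 passed, with 1 at an unadjusted p under 0.05 and 0 under DESeq2. TNF, the classical inducer of the pathway, had 0, 0 and 1 counts in control and 0, 0 and 3 in silenced libraries, and LTB had 0 counts in every library. IL8, the neutrophil attractant also named CXCL8, had 0, 8 and 10 counts in control and 9, 15 and 9 in silenced libraries. RNA of these 3 ligands was therefore at or near the limit of detection in both groups. A count of 0 allows up to 3 counts, for counting error only.

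All 32 genes of signalling adaptors, kinases and ubiquitin enzymes were tested, with 3 higher (9.38%) and 2 lower (6.25%). These shares were near those of all genes tested, 8.75% higher and 8.27% lower. The log2 fold change was positive for 16 and negative for 16 of the 32, so the list as a whole showed no shift. BCL10, an adaptor of the CARD and MALT1 complex, had a log2 fold change of 0.52 (edgeR adjusted p = 0.0474), the ubiquitin ligase ITCH one of 0.27 (adjusted p = 0.0413) and the linear-chain deubiquitinase OTULIN, listed as FAM105B, one of 0.25 (adjusted p = 0.0430). SHARPIN, a subunit of the linear ubiquitin ligase, fell by 0.39 on the log2 scale (adjusted p = 0.0362) and the receptor kinase IRAK1 fell by 0.33 (adjusted p = 0.0181). Thus IRAK2 rose while IRAK1 fell. Leaving out 1 library at a time, ITCH and OTULIN lost their call in all 6 fits (adjusted p from 0.0505 to 0.121 and from 0.0549 to 0.133), BCL10 in 5 (0.0812 to 0.147), SHARPIN in 4 (0.0679 to 0.135) and IRAK1 in 3 (0.0517 to 0.0572). Without control replicate 3 the adjusted p was 0.118 for ITCH, 0.0549 for OTULIN, listed as FAM105B, 0.103 for BCL10, 0.0691 for SHARPIN and 0.0292 for IRAK1. Of 42 other known targets 33 were tested, with 10 higher and 1 lower. The complement factor CFB had the largest log2 fold change, 1.24, followed by the coagulation initiator F3 (1.07), the stress transcription factor ATF3 (1.06) and the growth factor BMP2 (0.86). These 4 kept their call whichever library was left out, whereas MYC, which fell by 0.29 (adjusted p = 0.0334), lost it in 4 of 6 such fits (adjusted p from 0.0565 to 0.0980).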

How the data were processed

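RNA-Seq of 3 control and 3 silenced libraries of A549 cells was analysed, grouped by the treatment label. The deposited values are raw counts per gene, without normalization, for 40173 genes. According to the study's methods, the authors mapped the reads with MapSplice, and the submitters' processing notes name the build GRCh37. The gene annotation, the strand setting and the handling of reads with several matches are not given in the sources used here. Overlapping, antisense and near-identical genes may therefore share reads.

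Counts were tested with edgeR 4.0.16 in R 4.3.3. The steps were filterByExpr (minimum count 10), TMM normalization, the quasi-likelihood F test with group as the only term, and Benjamini-Hochberg adjustment over 15250 genes. Standard errors were taken from the log2 fold change and its F statistic. The smallest p of an exact permutation test of 3 against 3 libraries is 0.1, so tests of single genes rely on edgeR's pooling of variance. Totals of 9738291 to 17742643 counts make 1 CPM about 10 counts in the shallowest library, which limits precision for low genes. Libraries of the same group were not identical within sampling noise (chi-square per degree of freedom 3.92 to 26.8). On simulated counts edgeR recovered 100 of 100 genes at a log2 change of 1, with 9 false calls among 15110 genes. Recovery of smaller log2 changes was not tested, and all called NF-κB genes but TRAF1 and CXCL2 had such smaller changes. Recovery was not split by level, so for genes as low as CXCL2, at 6 to 26 counts per library, it was not tested separately.

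The 46 genes and the other lists were chosen with earlier results of these data known. Values in every library are given for genes with an adjusted p under 0.05, the Rel subunits, the IκB proteins and CHUK, IKBKB and IKBKG. From each other list the called genes are named, at most 4 per direction. Exon lengths came from GENCODE 29, in which SOD2 had no single length, and promoters from RefSeq (GRCh38.p14). Gene names were matched by symbol. The 15 other settings were DESeq2 1.42.0, RLE factors, library size only, genes of type mRNA only, both other minimum counts, the replicate number as a block, thinned counts, an adjusted p under 0.01 and each library left out in turn.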

Additional observations from a re-analysis of the deposited data

How the results depend on the processing

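The count of 13 higher NF-κB genes became 6 at an adjusted p under 0.01 and ran from 7 (without silenced replicate 1) to 13 when 1 library was left out, with 8 without control replicate 1 or control replicate 2. It became 14 with library size only or genes of type mRNA only (TNIP1 added), 14 with thinned counts (IL1A added) and 16 with all genes of at least 1 count (TNIP1, IKBKG and IL1A added), while DESeq2 and a minimum of 10 counts in every library gave 13, with TNIP1 in place of CXCL2. The p-values behind the 16 are not comparable with the main ones, and IL1A entered the thinned fit only through its silenced libraries. The 13 without control replicate 3 held TNIP1 and IKBKG in place of CYLD and IER3. The count of lower genes was 0 in each setting tried. The 2 genes over a fold change of 2 became 1 with DESeq2, with at least 10 counts in every library and at an adjusted p under 0.01, and 1 to 2 when a library was left out, with 1 without control replicate 1 or 2. The median log2 fold change of 0.20 became 0.23 to 0.30 with a library left out, and was highest without control replicate 3. These fits tested 41 or 42 genes of the set, not the same 40. The genes added were IL1A, IL1B or both, which reached the minimum only through silenced libraries and so raised the median. Without control replicate 3 they stood at 1.84 and 1.60. A median over the same 40 genes was not computed. Of the other pathway genes, the 13 higher became 7 at an adjusted p under 0.01 and 7 to 10 with a library left out. The 3 lower became 1 with library size only, 5 with genes of type mRNA only, 5 with all genes of at least 1 count, 0 at an adjusted p under 0.01 and 0 to 3 with a library left out. The cause of these shifts was not tested, apart from the stricter threshold. The looser promoter form was in 93.4% of the windows against 45.9% for the consensus.

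The direction reversed for genes near 0 that never passed. With library size only, TNIP2 was at 0.020 and CD83 at 0.0068, and CD83 was at 0.013 with thinned counts. With a library left out, RELB ranged from -0.077 to 0.32, NFKBIZ from -0.063 to 0.15, TNIP2 from -0.10 to 0.083, GADD45B from -0.0016 to 0.23 and CD83 from -0.14 to 0.053.

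Replicate numbers were not taken as pairing, since the deviations of same-numbered libraries correlated at 0.162, 0.190 and 0.0556, although each library correlated best with its own number. With the replicate block 14 NF-κB genes were higher (TNIP1 in addition) and 0 lower, 5 other pathway genes were lower, and 3449 of all genes passed, against 2595. Over all genes, 903 passed at an adjusted p under 0.01 and 1225 to 1962 with a library left out. The 326 genes over a fold change of 2 became 583 with at least 1 count, 199 with at least 10 counts in every library, 148 at an adjusted p under 0.01 and 200 to 335 with a library left out. At these depths CXCL1, CXCL3, CXCL5, CCL20, IL1A and IL1B were below the level for testing.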

Other observations

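Silenced replicate 2 was the lowest silenced library for IER3, BCL3 and ICAM1, genes singled out after their values were seen. IER3 was at 59.2 CPM there against 95.6 and 89.6 CPM in silenced replicates 1 and 3, BCL3 at 11.8 against 20.5 and 20.3 CPM, and ICAM1 at 72.0 against 84.4 and 89.0 CPM. Without silenced replicate 2, the log2 fold change was 0.74 (edgeR adjusted p = 9.22e-04) for IER3, 0.35 (adjusted p = 0.119) for BCL3 and 0.24 (adjusted p = 0.0710) for ICAM1. BCL3 and ICAM1 did not pass without it. What sets this library apart for these genes was not tested.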
